A study of Arabidopsis thaliana with 42 samples.

Results

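The genes described here act in 4 plant hormone pathways, those of jasmonate, abscisic acid, ethylene and cytokinin. They were chosen by name: a probe set of the ATH1 array, a group of short DNA elements that together report 1 transcript, was taken if its annotation held exactly 1 gene and that gene's symbol began with a family name of these pathways followed by a digit. The rule used no measured value. It found 9 probe sets of the 13513 with 1 annotated gene and the 22810 on the array: MYC3 (AT5G46760, on chromosome 5) and MYC4 (AT4G17880, chromosome 4) for jasmonate, EIN3 (AT3G20770, chromosome 3) for ethylene, 6 response regulators for cytokinin, and 0 for abscisic acid. The regulators were ARR15 (AT1G74890) and RR19 (AT1G49190) on chromosome 1, RR16 (AT2G40670) on chromosome 2, RR22 (AT3G04280) on chromosome 3, and RR18 (AT5G58080) and RR23 (AT5G62120) on chromosome 5. A further 8730 probe sets had no entry in the annotation used here, so the families are covered only in part.

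The arrays measured RNA of whole roots from 12-day-old hydroponic Arabidopsis thaliana seedlings of 7 accessions, which are natural inbred strains collected at different places: Kas2, NFA8, SQ8, TAMM27, Ts5, Var2-1 and Col0, the reference strain for which the array was designed. All had grown on 0.5 mM ammonium succinate as the sole nitrogen source with 3 mM sucrose, and at dawn received 5 mM KNO3, or 5 mM KCl as the control for the added potassium, for 2 h. Each of the 14 groups held 3 arrays labelled as biological replicates, 42 in all. Each accession stands for 1 genotype, and a lower signal in a whole root cannot tell fewer cells of a type from less RNA per cell.

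Jasmonate releases the basic helix-loop-helix factors MYC3 and MYC4 from JAZ repressors, and both act beside MYC2 in defence and glucosinolate synthesis. Ethylene acts through EIN2 to stabilise EIN3, the transcription factor that starts the ethylene response and that F-box proteins otherwise mark for degradation. Cytokinin passes a phosphate from sensor kinases to response regulators. Type-B regulators, such as RR18 and RR19, are transcription factors, type-A regulators such as ARR15 and RR16 are induced by cytokinin and dampen the response, and RR22 belongs to the small type-C group. Nitrate raises cytokinin synthesis in roots, and cytokinin in turn carries nitrogen status to the shoot.

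MYC3, MYC4 and EIN3 were measured at levels that could be tested, and none of the 3 passed a test of KNO3 against KCl. MYC3 and MYC4 passed a test of differences among accessions. MYC4 was lower in Kas2 and higher in Col0 than in the other 6 accessions. MYC3 was lower in TAMM27, a call that was lost without any of 24 single arrays. The paper states that sequence differences from Col0 could alter binding to the array, and their part in these differences was not tested. The 6 response regulators lay below a signal of 100, the study's limit of detection, on all but a few arrays. Values are MAS5 signals, a linear brightness scale set per array. They compare arrays for 1 probe set and not 1 gene with another. Array medians over the 22746 probe sets other than controls lay between 97.5 and 157.6. Gene names rest on the deposited probe identifiers: over the 139 genes with 2 probe sets in the annotation, the mean log2 signals of both correlated at r = 0.087 across genes, which are not independent replicates, and the cause was not settled.

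The arrays fell into 2 kinds by the control probe sets for the 3′ and 5′ ends of GAPDH, actin and ubiquitin, whose ratio rises when RNA or labelled fragments are short. The mean log2 ratio was 0.0532 to 1.72 on 24 arrays and 2.70 to 4.57 on 18, of which 8 were KNO3 arrays and 10 KCl arrays. The 18 arrays of high ratio comprised 5 of Kas2, 4 of TAMM27, 4 of Ts5, 2 of NFA8, 2 of Var2-1, 1 of SQ8 and 0 of Col0. Of 12 shoot photosynthesis genes listed, 3 had a probe set (RCA, PSAE1 and PRK), and their summed signal was 28136 on Var2-1 KNO3 replicate 1 against 217.7 to 545.9 on the other 5 Var2-1 arrays. In TAMM27 it was 1979 to 4986 with a median of 3971, against 124.3 to 28136 with a median of 657.2 in the other accessions. Of 14 root genes listed, EXPA7, a root hair expansin, alone had a probe set. The labelled tissue was therefore checked on 1 root gene, with signals of 8.4 to 509.9, and in TAMM27 EXPA7 was 3.31-fold lower than in the other 6 accessions (adjusted p = 0.00911). Of 14 nitrate-induced genes listed, HHO3 and HHO2 alone had a probe set, so the treatment was checked on 2 genes. HHO3, a repressor of nitrate transporter genes, rose by 0.84 (SE 0.16) on the log2 scale averaged over accessions (limma, adjusted p = 0.0107). HHO2 gave 0.35 (SE 0.20, adjusted p = 0.690) and did not pass. By accession, HHO3 differences ran from -0.14 in Ts5 to 1.75 in Kas2, with 0.37 in Col0. Kas2 alone passed (limma, adjusted p = 0.0600, and 0.102 with no filter on signal).

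MYC3 signals in Kas2 were 82.7, 355.5 and 222.9 with KNO3 and 136.1, 217.7 and 297.0 with KCl. In TAMM27 they were 152.4, 134.0 and 195.3 with KNO3 and 185.8, 230.5 and 283.1 with KCl. These were the low accessions, and all 6 TAMM27 arrays lay below the lowest Col0 array. In NFA8 the signals were 334.5, 369.4 and 272.3 with KNO3 and 363.3, 282.6 and 426.5 with KCl. In SQ8 they were 241.3, 568.1 and 342.0 with KNO3 and 520.6, 407.9 and 213.2 with KCl. In Ts5 they were 239.2, 158.0 and 320.2 with KNO3 and 499.9, 243.9 and 298.9 with KCl. SQ8 and Ts5 varied widely within each treatment. In Var2-1 the signals were 99.4, 459.1 and 492.0 with KNO3 and 185.0, 438.2 and 442.4 with KCl, so replicate 1 of either treatment was low. In Col0 they were 364.1, 370.1 and 418.9 with KNO3 and 386.4, 306.1 and 361.9 with KCl, the narrowest spread. KNO3 and KCl arrays of MYC3 overlapped in each of the 7 accessions.

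MYC4 signals in Kas2 were 97.2, 114.3 and 107.0 with KNO3 and 92.5, 58.0 and 321.6 with KCl. In NFA8 they were 149.7, 136.4 and 80.1 with KNO3 and 192.6, 209.8 and 146.5 with KCl. Apart from Kas2 KCl replicate 3, the Kas2 arrays lay below every array of SQ8, Ts5, Var2-1 and Col0, and all 6 NFA8 arrays lay below every Col0 array. In SQ8 the signals were 256.0, 332.4 and 240.3 with KNO3 and 427.8, 163.8 and 336.3 with KCl. In TAMM27 they were 220.4, 228.3 and 119.0 with KNO3 and 211.0, 285.3 and 201.4 with KCl. In Ts5 they were 378.9, 179.7 and 239.6 with KNO3 and 318.4, 165.4 and 159.5 with KCl. SQ8, TAMM27 and Ts5 overlapped one another. In Var2-1 the signals were 339.1, 220.2 and 215.8 with KNO3 and 229.8, 131.1 and 211.3 with KCl. In Col0 they were 239.7, 453.3 and 303.9 with KNO3 and 437.4, 291.3 and 316.7 with KCl, and Col0 was the high accession. KNO3 and KCl arrays of MYC4 overlapped in each accession, and Kas2 KCl replicate 3 was the exception to an otherwise low accession.

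EIN3 exceeded 100 on all 42 arrays. Its signals in Kas2 were 684.1, 1138 and 1121 with KNO3 and 340.0, 587.7 and 948.6 with KCl. In Ts5 they were 1078, 472.3 and 969.5 with KNO3 and 747.7, 964.7 and 1211 with KCl. Kas2 KCl replicate 1 and Ts5 KNO3 replicate 2 were the lowest of the 42. In NFA8 the signals were 1273, 876.2 and 804.0 with KNO3 and 1053, 599.1 and 1067 with KCl. In SQ8 they were 820.8, 1220 and 761.2 with KNO3 and 1489, 1184 and 627.4 with KCl. In TAMM27 they were 1024, 762.1 and 1325 with KNO3 and 842.3, 904.0 and 980.4 with KCl. NFA8, SQ8 and TAMM27 overlapped one another. In Var2-1 the signals were 619.2, 881.3 and 981.1 with KNO3 and 488.5, 837.3 and 807.1 with KCl. In Col0 they were 1073, 1324 and 1118.5 with KNO3 and 991.4, 1078 and 1095 with KCl, each above every Var2-1 array. KNO3 and KCl arrays of EIN3 overlapped in each accession.

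**Figure D1:**
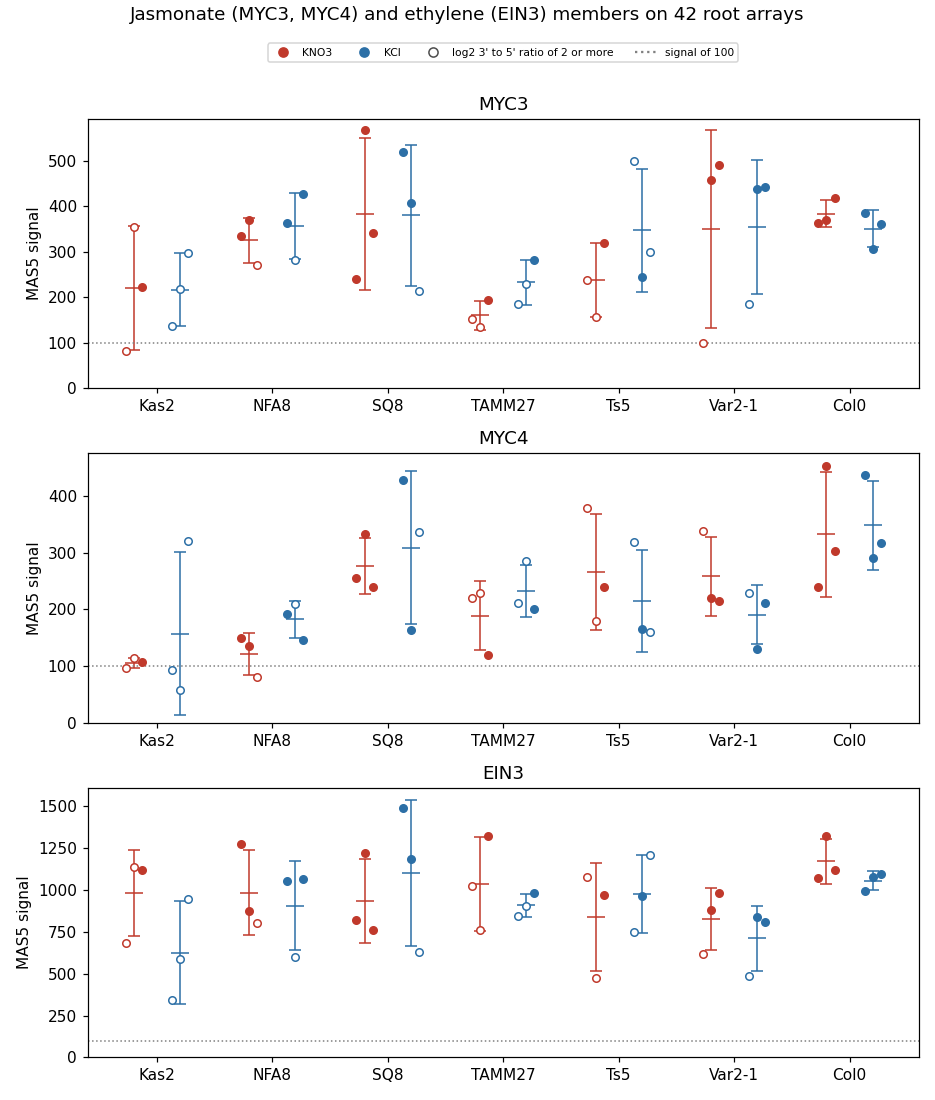
MAS5 signal (linear axis from 0) of MYC3, MYC4 and EIN3 on the 42 arrays by accession, KNO3 in red left of KCl in blue; each point is 1 array, bars are the mean and SD of 3 arrays, open points have a log2 3′ to 5′ ratio of 2 or more and the dotted line is a signal of 100. The treatments overlap in every accession, while 5 of 6 Kas2 arrays are low for MYC4 and all 6 TAMM27 arrays lie below Col0 for MYC3.

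The first comparison asked whether the members responded to nitrate when the response was averaged over the 7 accessions. MYC3 averaged 294.8 ± 132.2 with KNO3 and 320.3 ± 109.2 with KCl (SD, n = 21 arrays each). On the log2 scale the averaged KNO3 minus KCl difference of MYC3 was -0.20 (SE 0.18), with a 95% interval of -0.58 to 0.18 (adjusted p = 0.835). MYC4 averaged 221.5 ± 99.6 with KNO3 and 233.7 ± 101.4 with KCl, and its difference was -0.08 (SE 0.16, interval -0.41 to 0.26, adjusted p = 0.964). Both jasmonate factors thus differed between treatments by less than these SDs, which span all 7 accessions. EIN3 averaged 967.8 ± 235.5 with KNO3 and 897.3 ± 269.3 with KCl, and its difference was 0.14 (SE 0.14, interval -0.14 to 0.41, adjusted p = 0.852). Of the 3 members tested, 0 were called by limma at an adjusted p of 0.1 and 0 at an unadjusted p under 0.05. Of all 6590 probe sets tested, 0.789% were called and 8.5% had an unadjusted p under 0.05, and the median difference was -0.01. Ordinary least squares also called 0 of 3.

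The second comparison asked whether each accession responded by itself, and whether the responses differed. In Kas2, EIN3 averaged 980.8 ± 257.1 with KNO3 and 625.4 ± 306.1 with KCl (SD, n = 3 each), the largest single response in size of the 21 tested. Its log2 difference was 0.73 (SE 0.36, interval 0.0024 to 1.46), with an unadjusted p of 0.0493 and an adjusted p of 0.497 by limma. Without Kas2 KCl replicate 1, whose signal was 340.0 and whose log2 3′ to 5′ ratio was 4.49, the difference was 0.36 (adjusted p = 0.906). For MYC4 the differences ran from -0.61 (SE 0.44) in NFA8 to 0.44 (SE 0.44) in Var2-1. MYC4 averaged 122.1 ± 36.9 with KNO3 and 183.0 ± 32.7 with KCl in NFA8, and 258.4 ± 70.0 with KNO3 and 190.7 ± 52.5 with KCl in Var2-1. For MYC3 they ran from -0.53 (SE 0.49) in TAMM27 to 0.13 (SE 0.49) in Col0, and the Var2-1 value of -0.22 was -0.64 without KCl replicate 1 and 0.53 without KNO3 replicate 1, the array with the high shoot marker sum, whose part in the result was not tested. None of the 21 differences passed (limma, 0 at an adjusted p of 0.1 and 1 at an unadjusted p under 0.05, with 0 and 1 by ordinary least squares). Over all probe sets 6.28% of such tests by limma had an unadjusted p under 0.05. The share of all probe sets called was 0.85% in Kas2, 0.0455% in NFA8, 0.41% in SQ8, 0.182% in TAMM27, 0.774% in Ts5, 0% in Var2-1 and 0% in Col0. The interaction of nitrogen and accession gave F = 0.27 for MYC3, 0.70 for MYC4 and 0.82 for EIN3, each with an adjusted p of 0.9998 by limma. Thus 0 of 3 were called (0 at an unadjusted p under 0.05, and 0 by ordinary least squares). Of all probe sets 0.197% were called and 6.19% had an unadjusted p under 0.05 by limma.

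**Figure D2:**
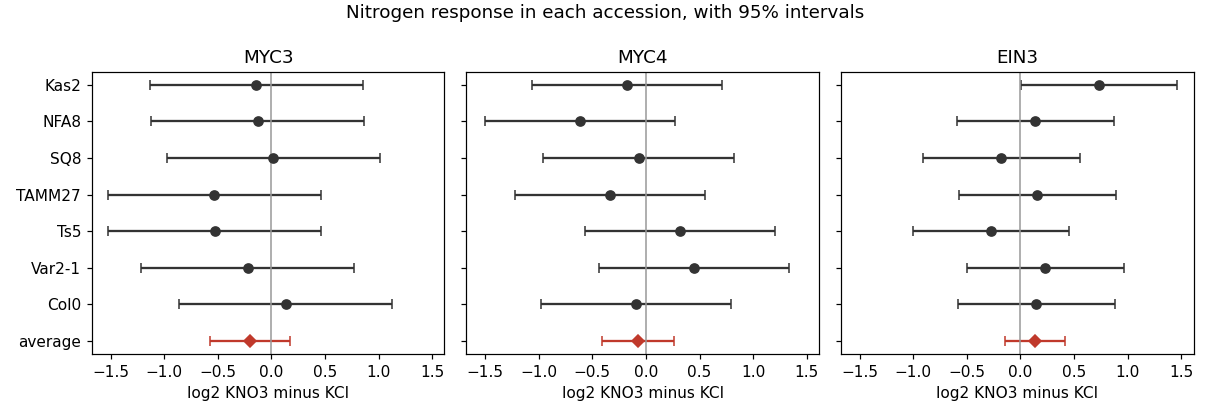
Log2 KNO3 minus KCl (horizontal axis) of MYC3, MYC4 and EIN3 in each accession (grey circles, n = 3 arrays per treatment) and averaged over the 7 (red diamonds), with 95% intervals from limma. The averaged values are -0.20, -0.08 and 0.14, and the interval of EIN3 in Kas2 alone ends above 0 before adjustment.

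The third comparison asked whether the level of a member, averaged over both treatments, differed among accessions. MYC4 differed (F = 5.87, adjusted p = 0.00187) and MYC3 did so by a smaller margin (F = 2.58, adjusted p = 0.0679), while EIN3 gave F = 1.35 (adjusted p = 0.321). Thus 2 of 3 members were called where 59.8% of all probe sets tested were, a share like that of the array as a whole. The MYC3 call was lost with quantile normalization (adjusted p = 0.119), on the low-ratio arrays alone (0.516) and without any 1 of Kas2 KNO3 replicate 1, Kas2 KCl replicate 1, TAMM27 KNO3 replicate 1, TAMM27 KNO3 replicate 2 and TAMM27 KCl replicate 1 (0.105 to 0.122). The low-ratio fit held NFA8, SQ8, Var2-1 and Col0 alone. It left out Kas2 and TAMM27, the low accessions for MYC3, so it could not show their difference.

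In order of mean signal, MYC4 stood at 340.4 ± 85.6 in Col0, 292.8 ± 92.1 in SQ8, 240.2 ± 90.7 in Ts5, 224.6 ± 66.6 in Var2-1, 210.9 ± 53.8 in TAMM27, 152.5 ± 45.7 in NFA8 and 131.8 ± 95.01 in Kas2 (SD, n = 6 arrays each). Neighbours in that order overlapped throughout. Set against the mean of the other 6 accessions, MYC4 in Kas2 was lower by a log2 difference of -1.001 (SE 0.24, interval -1.48 to -0.52, adjusted p = 0.00430), or 2.00-fold. The share of all probe sets called in Kas2 was 20.8%. In Col0 MYC4 was 1.75-fold higher (log2 0.80, SE 0.24, interval 0.32 to 1.28, adjusted p = 0.0164), where 26.1% were called. NFA8 gave -0.57 (SE 0.24, adjusted p = 0.211, with 5.36% called), and SQ8 gave 0.52 (SE 0.24, adjusted p = 0.145, with 17.9% called). The Kas2 and Col0 calls of MYC4 held without each array in turn, with the log2 difference between -1.35 and -0.74 in Kas2 and between 0.68 and 0.91 in Col0.

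Because 5 of 6 Kas2 arrays had a high 3′ to 5′ ratio and no Col0 array had, MYC4 was also read within each kind of array. The 5 Kas2 arrays of high ratio gave 58.0 to 321.6 with a median of 97.2, against a median of 228.3 on the 13 high-ratio arrays of the other accessions (80.1 to 378.9). The 1 Kas2 array of low ratio gave 107.0, below all 23 low-ratio arrays of the other accessions (119.0 to 453.3). On the low-ratio arrays of NFA8, SQ8, Var2-1 and Col0, MYC4 in Col0 was higher than in the others by 0.73 (limma, adjusted p = 0.0197). With the ratio as a covariate the Kas2 difference of MYC4 was -1.17 (adjusted p = 0.00295) and the Col0 difference 0.93 (adjusted p = 0.00894). Kas2 had 1 array of low ratio and Col0 no array of high ratio. The adjustment therefore rests largely on other accessions and does not separate ratio from accession there.

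**Figure D3:**
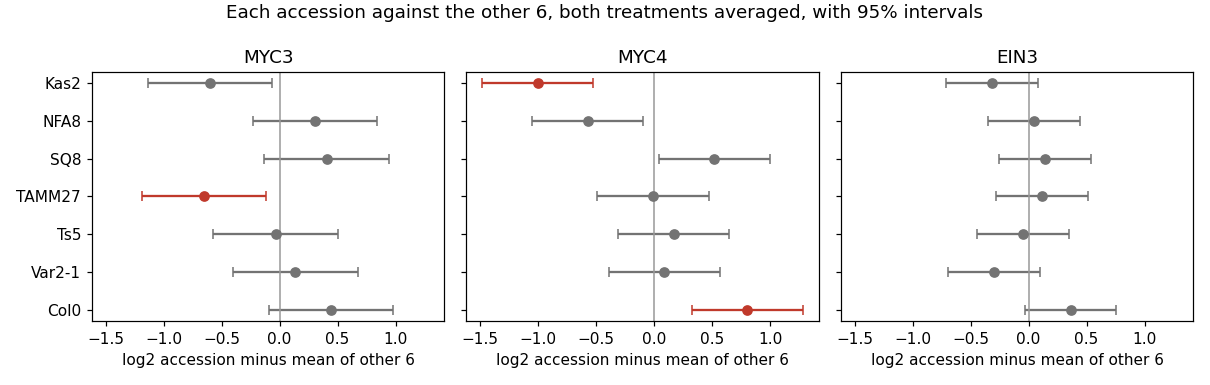
Log2 difference (horizontal axis) between each accession and the mean of the other 6, averaged over KNO3 and KCl, for MYC3, MYC4 and EIN3, with 95% intervals (n = 6 arrays per accession); red marks an adjusted p of at most 0.1 over 6590 probe sets. MYC4 is lower in Kas2 (-1.001) and higher in Col0 (0.80), MYC3 is lower in TAMM27 (-0.65), and no accession is marked for EIN3.

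MYC3 stood at 382.2 ± 144.5 in SQ8, 367.9 ± 36.9 in Col0, 352.7 ± 166.4 in Var2-1, 341.4 ± 57.9 in NFA8, 293.4 ± 115.9 in Ts5, 218.7 ± 100.2 in Kas2 and 196.8 ± 54.1 in TAMM27, with neighbours overlapping throughout. In TAMM27 the difference from the other 6 was -0.65 (SE 0.26, interval -1.19 to -0.12, adjusted p = 0.0914), or 1.57-fold lower, where 21.7% of all probe sets were called. Leaving out any of 24 arrays, 4 each of Kas2, TAMM27, Var2-1 and Col0, 3 each of NFA8 and SQ8 and 2 of Ts5, brought the adjusted p above 0.1, to at most 0.260. With the replicate number within each accession as a random block the call was also lost (adjusted p = 0.122). In Kas2 the difference was -0.60 (SE 0.26, adjusted p = 0.124), and it passed without 4 single arrays: -0.66 (adjusted p = 0.0406) without Var2-1 KNO3 replicate 1, -0.64 (0.0845) without Var2-1 KCl replicate 1, -0.83 (0.0682) without Kas2 KNO3 replicate 2 and -0.63 (0.0923) without SQ8 KCl replicate 3. Shoot marker signal was high on all 6 TAMM27 arrays and EXPA7 was low, and their part in the MYC3 difference was not tested.

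MYC3 was also lower on arrays of high 3′ to 5′ ratio, which the accessions held in unlike numbers. Its median was 215.4 on the 18 arrays of high ratio (82.7 to 499.9) and 366.8 on the 24 of low ratio (195.3 to 568.1). Within Var2-1 the 2 arrays of high ratio gave 99.4 and 185.0 and the 4 of low ratio 438.2 to 492.0. The array at 99.4 also had the high shoot marker sum, whose part was not tested. Medians on arrays of high and low ratio were 277.45 and 366.35 in NFA8, 213.2 and 407.9 in SQ8, and 169.1 and 239.2 in TAMM27. They lay closer in Kas2 (217.7 and 222.9) and Ts5 (269.05 and 282.05). SQ8 had 1 array of high ratio. With the ratio as a covariate MYC3 no longer passed among accessions (limma, F = 1.38, adjusted p = 0.310). The Kas2 difference was then -0.12 (adjusted p = 0.812), and that of TAMM27 was -0.56 (adjusted p = 0.0612). As for MYC4, the adjustment rests largely on other accessions and does not separate ratio from accession in Kas2, which had 1 array of low ratio. MYC4 had medians of 215.7 on arrays of high ratio and 218.0 on those of low ratio.

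**Figure D4:**
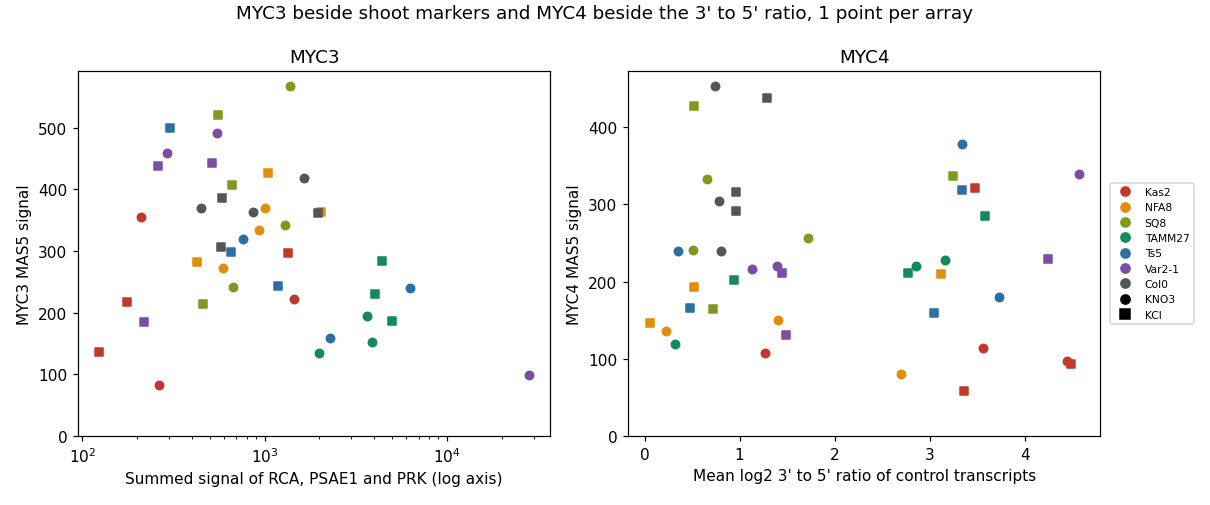
Left, MYC3 signal against the summed signal of the shoot genes RCA, PSAE1 and PRK (log axis); right, MYC4 signal against the mean log2 3′ to 5′ ratio; 1 point per array, coloured by accession, circles KNO3 and squares KCl. The 6 TAMM27 arrays have sums of 1979 to 4986 with MYC3 at 134.0 to 283.1, and the 5 Kas2 arrays of high ratio have MYC4 between 58.0 and 321.6.

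EIN3 stood at 1113 ± 111.8 in Col0, 1017 ± 330.9 in SQ8, 972.9 ± 196.3 in TAMM27, 945.4 ± 235.9 in NFA8, 907.1 ± 261.9 in Ts5, 803.1 ± 319.0 in Kas2 and 769.1 ± 181.6 in Var2-1, and neighbours in that order overlapped. No accession passed against the other 6 for EIN3: the smallest adjusted p was 0.195, in Col0 (log2 0.36, SE 0.19, interval -0.03 to 0.76), and Var2-1 gave -0.30 (SE 0.19, adjusted p = 0.433, with 10.6% of all probe sets called). Ts5, where 16.9% were called, had no called member either. EIN3 was lower on arrays of high ratio, with a median of 754.9 (340.0 to 1211), than on those of low ratio, with 1060 (761.2 to 1489). With the ratio as a covariate EIN3 gave F = 0.62 among accessions (limma, adjusted p = 0.737). Its Kas2 difference was 0.03 (adjusted p = 0.945), against -0.32 (adjusted p = 0.283) without the covariate. Kas2 had 1 array of low ratio, so this adjustment does not separate ratio from accession there. Over the 3 members, 3 of 63 pairs of accessions had arrays that did not overlap, where the share over all probe sets tested was 5.82%: TAMM27 and Col0 for MYC3, NFA8 and Col0 for MYC4, and Var2-1 and Col0 for EIN3.

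The deposited signals had been computed after elements that deviated from Col0 were removed, so a probe set was read from partly different elements in each accession and treatment. Of 11 elements, MYC3 lost 0 to 2, EIN3 0 to 2 and MYC4 1 to 3 in the 12 lists, and for none of the 3 did the KNO3 and KCl lists of an accession agree. MYC4 lost element 7 in Kas2 KNO3, element 5 in Kas2 KCl, element 5 in NFA8 KNO3, and elements 5 and 10 in NFA8 KCl. No element was removed in Col0. The most removed from a member in 1 list were 7 elements, of ARR15 in Ts5 KCl, where the Ts5 KNO3 list held 1. The paper gives as its reason that sequence differences from Col0 could change how strongly a transcript binds an element. The part of such sequence differences, and of this removal, in the differences above was not tested.

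The 6 cytokinin response regulators covered here, as named by the deposited probe identifiers, had signals mostly below the study's limit of detection. Of their 252 signals, 8 reached 100, on 5 arrays. The type-A regulator ARR15 had a median of 26.6 (2.1 to 128.8) and RR16 one of 21.9 (1.4 to 119.9). The type-B regulators RR18 and RR19 had medians of 20.8 (1.9 to 240.8) and 11.7 (1.9 to 203.6), and RR23, usually listed with them, had 6.35 (0.8 to 82.9). The type-C regulator RR22 had 5.1 (0.9 to 122.7). These are ranges for separate probe sets and set no order among the genes.

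The 8 signals at 100 or more came from SQ8 and Ts5 alone. SQ8 KNO3 replicate 1 gave 240.8 for RR18 and 122.7 for RR22, and SQ8 KCl replicate 3 gave 203.6 for RR19. On these arrays 26.1% and 26.9% of the 4561 single-gene probe sets with a mean signal under 50 reached 100, against a median of 0.515% over the 42 arrays. Ts5 KNO3 replicates 2 and 3 gave 119.9 and 107.6 for RR16, where 4.67% and 14.0% of such dim probe sets reached 100. Ts5 KCl replicate 1 gave 128.8 for ARR15, 127.7 for RR18 and 121.4 for RR19, where 17.0% did. On each of these 5 arrays the share of dim probe sets at 100 lay above the median over all arrays. SQ8 KNO3 replicate 3, at 9.36%, had a larger share than Ts5 KNO3 replicate 2 and held no member at 100.

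**Figure D5:**
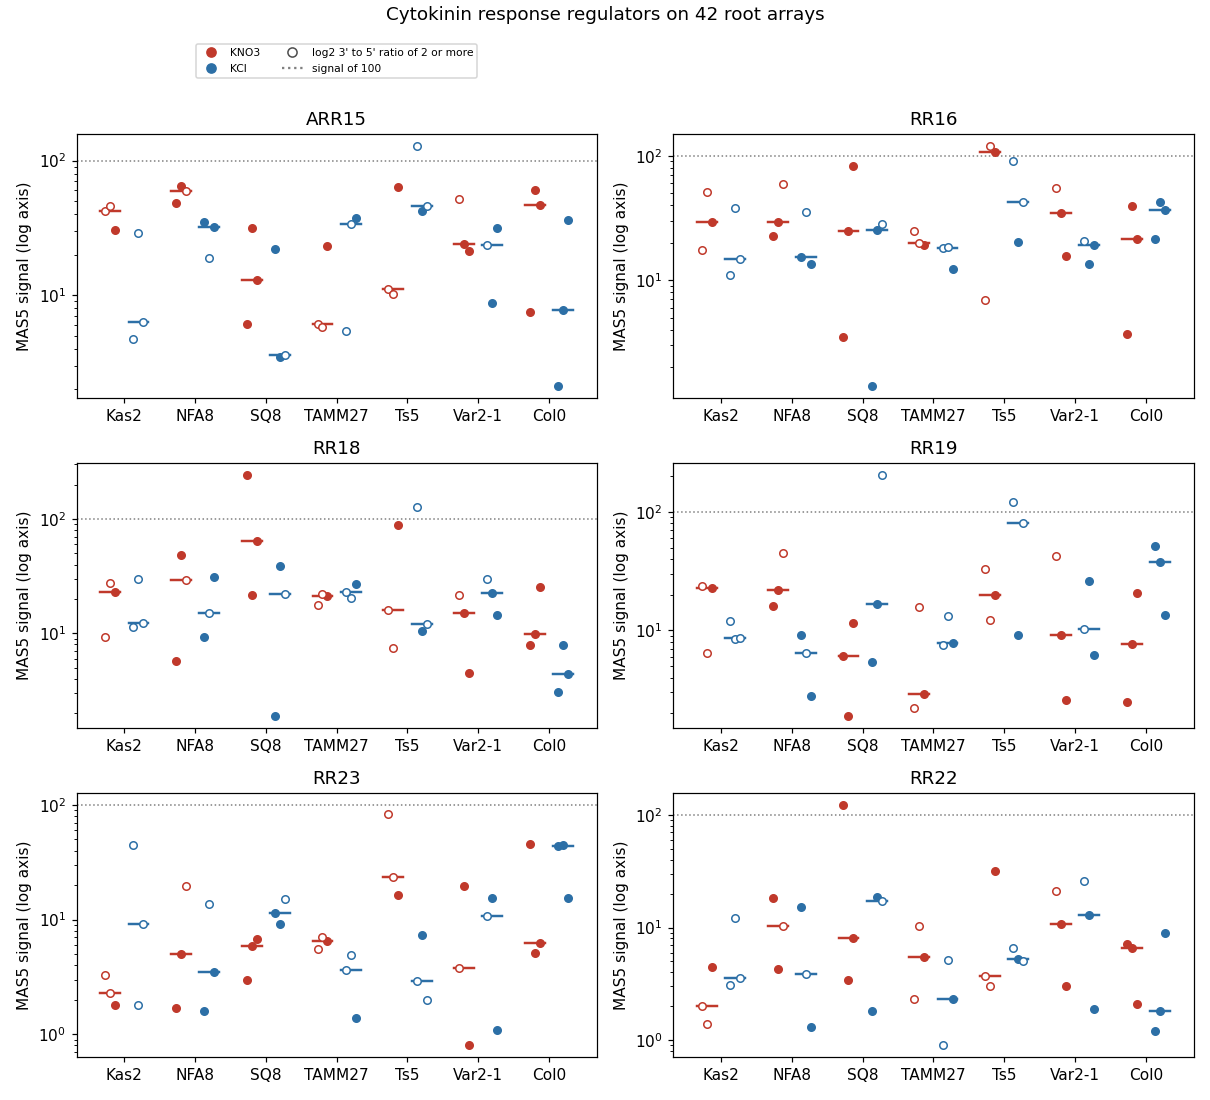
MAS5 signal (log axis) of the 6 cytokinin response regulators on the 42 arrays by accession, KNO3 in red left of KCl in blue; each point is 1 array, short lines are medians of 3 arrays, open points have a log2 3′ to 5′ ratio of 2 or more and the dotted line is a signal of 100. Of 252 signals, 8 reach 100, in SQ8 and Ts5.

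ARR15 had the lowest p for a difference among accessions of the cytokinin members and is given array by array. Its signals in Kas2 were 42.3, 45.9 and 30.5 with KNO3 and 4.7, 28.9 and 6.3 with KCl. In NFA8 they were 48.7, 65.3 and 59.6 with KNO3 and 35.2, 18.8 and 32.0 with KCl. In these accessions the 3 KNO3 arrays lay above the 3 KCl arrays, all under 100. In Ts5 the signals were 11.1, 10.2 and 64.0 with KNO3 and 128.8, 42.3 and 46.1 with KCl. In TAMM27 they were 6.1, 5.8 and 23.3 with KNO3 and 5.4, 33.7 and 37.3 with KCl. In SQ8 they were 6.1, 31.8 and 13.0 with KNO3 and 22.1, 3.5 and 3.6 with KCl. These 3 accessions overlapped between treatments. In Var2-1 the signals were 51.7, 24.2 and 21.2 with KNO3 and 23.6, 8.7 and 31.5 with KCl. In Col0 they were 7.5, 61.0 and 47.0 with KNO3 and 2.1, 7.8 and 36.3 with KCl, again with overlap.

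RR23 and RR19 had the next lowest p. RR23 in Ts5 gave 82.9, 23.5 and 16.4 with KNO3 and 2.9, 7.4 and 2.0 with KCl. In SQ8 it gave 3.0, 5.9 and 6.8 with KNO3 and 11.3, 9.2 and 15.1 with KCl. In TAMM27 it gave 5.5, 7.1 and 6.5 with KNO3 and 3.6, 4.9 and 1.4 with KCl. The treatments were separate in these 3 accessions, with KNO3 above KCl in Ts5 and TAMM27 and below it in SQ8. In Kas2 RR23 gave 3.3, 2.3 and 1.8 with KNO3 and 45.1, 1.8 and 9.2 with KCl. In NFA8 it gave 1.7, 5.0 and 19.5 with KNO3 and 1.6, 13.8 and 3.5 with KCl. In Var2-1 it gave 3.8, 19.5 and 0.8 with KNO3 and 10.8, 15.4 and 1.1 with KCl. These 3 accessions overlapped between treatments. In Col0 it gave 45.7, 5.1 and 6.2 with KNO3 and 44.0, 44.9 and 15.4 with KCl, the accession of highest mean at 26.9 ± 20.0 (SD, n = 6).

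RR19 in SQ8 gave 6.1, 1.9 and 11.5 with KNO3 and 5.4, 16.7 and 203.6 with KCl, a wide range that rested on KCl replicate 3. In Ts5 RR19 gave 33.2, 12.2 and 19.9 with KNO3 and 121.4, 9.2 and 81.2 with KCl. In NFA8 it gave 16.0, 21.8 and 45.0 with KNO3 and 9.1, 6.5 and 2.8 with KCl, and there the treatments were separate. In Kas2 it gave 23.7, 6.5 and 22.9 with KNO3 and 11.9, 8.5 and 8.7 with KCl. In TAMM27 it gave 2.2, 15.8 and 2.9 with KNO3 and 7.5, 13.2 and 7.9 with KCl. In Var2-1 it gave 42.4, 9.1 and 2.6 with KNO3 and 10.3, 26.3 and 6.2 with KCl. The treatments overlapped in Kas2, TAMM27 and Var2-1. In Col0 it gave 2.5, 7.7 and 20.5 with KNO3 and 51.2, 37.8 and 13.4 with KCl. RR16 was highest in Ts5, at 64.8 ± 47.7, with accession means of 18.8 to 29.2 elsewhere, and RR18 averaged 9.75 ± 8.02 in Col0, 43.6 ± 51.4 in Ts5 and 64.8 ± 88.7 in SQ8 (SD, n = 6). The SQ8 value of RR18 rested on KNO3 replicate 1, without which it was 29.6 ± 23.1 (n = 5). RR22 was under 32 on every array but SQ8 KNO3 replicate 1.

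With no limit on signal, a fit over all 13367 single-gene probe sets included the 6 regulators. Among these dim members, the largest averaged difference in size between KNO3 and KCl was -0.50 (SE 0.39, adjusted p = 0.836) for RR19, with ARR15 next at 0.49 (SE 0.35, adjusted p = 0.819). RR19 averaged 15.5 ± 12.8 with KNO3 and 31.4 ± 49.1 with KCl, and ARR15 averaged 32.2 ± 21.3 with KNO3 and 26.6 ± 27.6 with KCl (SD, n = 21 each). For RR16, RR18, RR22 and RR23 the differences were 0.35, 0.40, 0.36 and -0.07, each with a standard error of 0.37 to 0.39. Over all 9 members this fit called 0 for the averaged response (0 at an unadjusted p under 0.05) and 0 for the interaction (1 at an unadjusted p under 0.05, RR23 at 0.0324 with an adjusted p of 0.804). An unadjusted p under 0.05 was reached by 7.23% of all probe sets for the averaged response and 5.59% for the interaction in this fit. Of 63 own responses it called 0, with 5 at an unadjusted p under 0.05, which 5.77% of all such tests reached. Among accessions ARR15 gave F = 2.24 (adjusted p = 0.122), RR23 F = 2.02 (adjusted p = 0.162) and RR19 F = 1.39 (adjusted p = 0.346). MYC3 and MYC4 were the 2 members called and the 2 at an unadjusted p under 0.05, which 46.5% of all such tests reached. RR23 in Col0 alone passed among the dim members against the other 6 (log2 1.49, SE 0.53, adjusted p = 0.0643). Its signals there were 5.1 to 45.7, below the limit of detection like all 42 signals of RR23. In the main fit 26.1% of the 6590 probe sets were called in Col0. The KNO3 and KCl arrays did not overlap in 7 of 63 pairs of member and accession, all of them response regulators, 6 with KNO3 above KCl and 1 with KNO3 below. Over all single-gene probe sets 10.8% of such pairs did not overlap.

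Other genes of the pathways were taken from a list of 101, of which 12 had a probe set. For jasmonate 4 of 26 did: AIM1, a fatty acid oxidation enzyme of jasmonate synthesis, and OPCL1, which activates its precursor, could be tested, and neither passed the averaged response or the difference among accessions (adjusted p of 0.190 for AIM1 and 0.371 for OPCL1 among accessions). AIM1 in Ts5 was 1.37-fold higher than in the other 6 (log2 0.45, adjusted p = 0.0908, and 0.123 with the random block). For abscisic acid 2 of 32 did, the glucosyltransferase UGT71B6 and the cold and dehydration gene COR15A, with mean signals of 24.6 and 18.9, so no abscisic acid gene reached a testable level here. For ethylene 3 of 18 did, and all 3 differed among accessions, where 59.8% of all probe sets were called. ACO3, an enzyme of the last step of ethylene synthesis, was 2.11-fold higher in Col0 than in the other 6 (adjusted p = 0.00261), 1.65-fold higher in Ts5 (adjusted p = 0.0546), 2.196-fold lower in TAMM27 (adjusted p = 0.00214) and 1.78-fold lower in Var2-1 (adjusted p = 0.0340). RTE1, which promotes the function of the ethylene receptor ETR1, was 2.09-fold lower in Col0 (adjusted p = 0.000261) and 1.42-fold higher in TAMM27 (adjusted p = 0.0786), a call lost with no filter on signal (0.120) and with the random block (0.109). ETP2, an F-box protein that marks EIN2 for degradation, was 1.80-fold higher in Ts5 (adjusted p = 0.0269), and it is named after its values were seen, to complete the 3.

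For cytokinin 3 of 25 listed genes had a probe set, and UGT76C2, a glucosyltransferase that inactivates cytokinin, was the 1 that could be tested. It differed among accessions (limma, F = 2.36, adjusted p = 0.0896), a call lost with no filter on signal (0.103) and with the random block (0.133). UGT76C2 was 1.75-fold lower in SQ8 than in the other 6 (adjusted p = 0.0516), with group means of 110.4 with KNO3 and 247.1 with KCl in SQ8. The KCl means of the other accessions were 233.4 to 316.8, so the SQ8 difference lay in the KNO3 arrays. The response of UGT76C2 in SQ8 was -1.37 (SE 0.515, adjusted p = 0.308), which did not pass. Its averaged response was -0.28 (SE 0.19, adjusted p = 0.758). Of the 6 listed hormone genes tested, 0 were called for the averaged response, the interaction or an own response, where 0.789% of all probe sets were called for the averaged response and 0.197% for the interaction. Among accessions 4 of the 6 were called, against 59.8% of all probe sets.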

How the data were processed

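Biotin-labelled cRNA of whole roots was hybridised to ATH1 arrays. The authors discarded, for each accession and treatment other than Col0, probe elements whose rank within a probe set was an outlier against Col0 (deposited as lists of probe set line and element number), and the deposited values are MAS5 signal intensities on a linear scale, used here unchanged. The number of arrays limits the precision. Gene names came from the platform annotation through the deposited probe identifiers (a further listing of these data by the authors pairs these identifiers with other values, and the cause was not found), and RefSeq (TAIR10.1) placed 13367 of the 13513 single-gene probe sets in a nuclear gene. No sequences were used here.

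Log2(signal + 1) of the 6590 such probe sets with a mean signal of at least 100 was fitted with limma 3.58.1 in R 4.3.3 (14 group means, trended variance, two-sided moderated tests, Benjamini-Hochberg over all probe sets tested, threshold 0.1). The fit was tested on simulated data. Any member could be named. Array values are printed for members called for a response or interaction, for the 3 of each hormone with the smallest p among accessions and for the largest averaged response. From each pathway list, genes called for a response or interaction and up to 2 with the smallest p among accessions are named. Members and lists were chosen with earlier results of these data known. The labels call the replicates biological without saying how their cultures were separated, so p-values measure the spread between arrays.

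Alternatives changed the normalization, the pseudocount (16), the filter, the variance model, the replicate block, the use of the 3′ to 5′ ratio, the threshold (0.05), the discarded elements (own responses alone) and the arrays included. KNO3 and KCl arrays of the same number deviated together in TAMM27 (correlations of 0.413 to 0.692), Var2-1 (0.402 to 0.427) and Col0 (0.185 to 0.218). Each of these pairs was over 0.1, while in the other 4 accessions not every pair was. The main fit treated no arrays as paired. Fits with the number within each accession as a fixed or random block (duplicateCorrelation, correlation 0.139) covered all 7 accessions. They were chosen after seeing the data.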

Additional observations from a re-analysis of the deposited data

Results flagged for a closer look

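RR23 was the 1 member whose KNO3 arrays all lay on one side of the KCl arrays in some accessions and on the opposite side in another. In the fit without a limit on signal its log2 KNO3 minus KCl difference was 2.84 (SE 0.97) in Ts5 and 0.87 (SE 0.97) in TAMM27, with every KNO3 array above every KCl array, and -1.08 (SE 0.97) in SQ8, with every KNO3 array below. The interaction test over the 7 accessions gave an unadjusted p of 0.0324 and an adjusted p of 0.804 (limma, 13367 probe sets), so the difference did not pass. Of all these probe sets 5.59% had an unadjusted interaction p under 0.05. All 42 signals of RR23 were under 100, and the separation in TAMM27 was between signals of 5.5 to 7.1 with KNO3 and 1.4 to 4.9 with KCl. The largest of them, 82.9 in Ts5 KNO3 replicate 1, came from an array with a log2 3′ to 5′ ratio of 3.34, and the part of that ratio was not tested.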

How the results depend on the processing

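The count of members called for the averaged response, the interaction and the responses in single accessions was 0 under every alternative run. The count differing among accessions, 2 as reported, was 1 (MYC4) with quantile normalization, after adjusting for the 3′ to 5′ ratio, on the low-ratio arrays alone (NFA8, SQ8, Var2-1 and Col0) and at a threshold of 0.05. It ranged from 1 to 2 without single arrays, where MYC3 lost the call without Kas2 KNO3 replicate 1, Kas2 KCl replicate 1, TAMM27 KNO3 replicates 1 or 2, or TAMM27 KCl replicate 1 (MYC3 adjusted p of 0.105 to 0.122). Calls against the other 6 accessions numbered 3 as reported and 2 to 4 without single arrays. MYC3 in TAMM27 also lost its call with quantile normalization (adjusted p = 0.134), with no filter (0.126), with the highest group mean as filter (0.104) and with ordinary least squares (0.108). MYC4 kept its call among accessions in each alternative run, and its Kas2 and Col0 calls wherever these could be computed at a threshold of 0.1. The low-ratio fit leaves Kas2, TAMM27 and Ts5 out, so it cannot show a difference of these accessions. Of 2452 alternative values of tests that did not pass, 8 passed. No tested probe set had equal element lists in every accession, so that alternative for the averaged response was not run. For own responses, equal lists left members in Col0 alone, where no element was removed, and 0 were called.

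With the replicate number as a block, 2 members differed among accessions and 3 differences from the other 6 accessions were called, as without the block, and no response was. KNO3 and KCl arrays of an accession that share a number correlated in their deviations at -0.222 to 0.692 (above 0.1 in 11 of 21 pairs, and in 9 of 42 pairs of unlike number). All 3 pairs exceeded 0.1 in TAMM27, Var2-1 and Col0 and not in the other 4 accessions. With the number within each accession as a block, chosen after seeing the data, 0 responses of members were called by limma. MYC3 in TAMM27 stood at -0.53 (SE 0.36, adjusted p = 0.999) and EIN3 in Kas2 at 0.73 (SE 0.29, adjusted p = 0.301). Over all probe sets the fixed block called 117 in Kas2 and 74 in SQ8, against 56 and 27 without it, and 69 against 52 for the averaged response. With the block as random, 2 members differed among accessions (MYC3 adjusted p = 0.0986, MYC4 0.00497) and 2 differences from the other 6 accessions were called, MYC4 in Kas2 (0.00918) and Col0 (0.0289). Beside MYC3 in TAMM27 no other call of a member changed under a block.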
